A study of Mus musculus with 11 samples.

Results

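The p38 MAPK kinases and their direct partners were followed across 4 groups of sorted ST-HSCs, the short-term stem cells of the blood, from the bone marrow of mice. The members were 10 genes chosen by name, of 53700 genes in the count table: the p38 kinases Mapk14, Mapk11, Mapk12 and Mapk13, the kinases Map2k3, Map2k4 and Map2k6 that act on them, the activator Tab1, and the substrate kinases Mapkapk2 and Mknk2. All 10 were among the 16639 genes tested. The hosts were C57BL/6j mice that all carried a transplanted acute myeloid leukaemia marrow with Flt3-ITD, an activating mutation of the receptor kinase FLT3, and without the DNA demethylase Tet2. KO hosts (titled Cre_pos) were labelled as knockout for Cxcl12, a chemokine made by marrow stroma, and WT hosts (titled Cre_neg) as wild type for it. Treated hosts received cytarabine, doxorubicin and quizartinib together, that is a DNA-chain terminator, an anthracycline and a FLT3 inhibitor, and the other hosts received vehicle. There were 3 KO treated libraries (257, 263 and 276), 3 WT treated libraries (252, 262 and 266), 2 KO vehicle libraries (249 and 275) and 3 WT vehicle libraries (240, 253 and 265). The labels name neither the promoter that drives Cre nor the surface markers of the sort, and they do not say whether the sorted cells came from the graft or the host. They also do not say that each library was a separate mouse, so p-values measure the spread between libraries, which may be partly technical. The study's title places p38 signalling at the centre of the question, and the comparisons below ask how RNA of the pathway's kinases differed with the niche and with the treatment.

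In this cascade a MAP3K phosphorylates a MAP2K, which phosphorylates a p38 kinase, which in turn phosphorylates kinases and transcription factors. Mapk14 encodes p38 alpha, the isoform that most cells use, Mapk11 p38 beta, Mapk12 p38 gamma and Mapk13 p38 delta. In blood stem cells p38 is known for its activation by stress and oxidants and for limiting their lifespan. Activity of the pathway is set by phosphorylation, which RNA does not measure.

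The sequence of the 250 bases before a RefSeq transcription start, the one nearest the annotated gene start, was found for 9 of the 10 members, all but Tab1, on build GRCm38.p6. Shown 5′ to 3′ are those of Mapk14, Mapk13, Map2k4, Mapkapk2 and Mknk2. In likeness to Mapk14 over the libraries, Map2k4 and Mapkapk2 were at ranks 299 and 446 of 8098 genes, as given below. Mknk2 was less alike, at rank 1031, and Mapk13, the neighbour of Mapk14 on chromosome 17, was at rank 6086. Capitals mark the GC box GGGCGG, read on either strand.
Mapk14, chr17:28691092-28691341, plus strand: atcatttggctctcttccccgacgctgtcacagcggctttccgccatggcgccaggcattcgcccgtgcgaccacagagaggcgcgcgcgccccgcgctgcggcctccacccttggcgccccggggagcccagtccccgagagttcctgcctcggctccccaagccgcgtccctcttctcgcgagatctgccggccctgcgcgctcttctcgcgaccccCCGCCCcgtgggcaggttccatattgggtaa
Mapk13, chr17:28769067-28769316, plus strand: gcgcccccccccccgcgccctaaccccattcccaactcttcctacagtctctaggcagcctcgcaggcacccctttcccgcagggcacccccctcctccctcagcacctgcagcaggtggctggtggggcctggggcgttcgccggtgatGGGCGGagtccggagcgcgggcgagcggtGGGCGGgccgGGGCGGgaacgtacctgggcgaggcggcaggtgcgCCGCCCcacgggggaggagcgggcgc
Map2k4, chr11:65788360-65788609, minus strand: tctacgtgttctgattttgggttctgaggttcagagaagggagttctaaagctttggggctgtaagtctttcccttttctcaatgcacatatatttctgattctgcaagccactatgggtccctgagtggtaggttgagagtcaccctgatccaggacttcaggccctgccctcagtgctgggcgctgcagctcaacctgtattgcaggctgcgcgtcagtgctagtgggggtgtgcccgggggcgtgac
Mapkapk2, chr1:131097844-131098093, minus strand: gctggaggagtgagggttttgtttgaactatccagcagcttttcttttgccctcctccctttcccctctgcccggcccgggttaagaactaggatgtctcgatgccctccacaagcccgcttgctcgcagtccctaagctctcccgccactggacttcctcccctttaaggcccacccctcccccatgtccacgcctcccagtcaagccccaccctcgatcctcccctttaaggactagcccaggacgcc
Mknk2, chr10:80676294-80676543, minus strand: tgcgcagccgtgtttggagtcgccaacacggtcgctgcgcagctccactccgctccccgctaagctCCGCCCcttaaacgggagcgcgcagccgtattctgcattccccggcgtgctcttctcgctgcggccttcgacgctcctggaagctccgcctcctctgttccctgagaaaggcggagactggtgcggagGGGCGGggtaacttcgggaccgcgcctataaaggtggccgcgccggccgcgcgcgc
The window of Mapk13 held 4 GC boxes, that of Mknk2 2 and that of Mapk14 1, and no GC box was found in the windows of Map2k4 and Mapkapk2. Of 32851 windows of the same length, 32.7% held a GC box. The G and C content was 76% for Mapk13, 70.4% for Mapk14, 68.4% for Mknk2, 60.4% for Mapkapk2 and 54% for Map2k4, against a median of 52.4% over all windows. The CCAAT box (CCAAT, on either strand) was found once in the Mapk14 window and is in 33.8% of all windows, and the TATA box (TATAAA, on either strand) once in the Mknk2 window and in 12.4% of all. The motifs TGACGTCA, CACGTG and TGANTCA of the CREB, E-box and AP-1 factors, searched on both strands, are in 1.55%, 6.02% and 6.75% of all windows and were not found in these 5. In these 5 windows no match overlapped one of another motif. The Mknk2 window lies inside the gene's GENCODE M21 span (chr10:80665327-80678112), so it does not precede the annotated gene start. The matches are descriptions of letters, not of binding.

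The libraries held 8.13 to 31.1 M counts in genes, the fewest in WT vehicle 265, and 5.98% to 30.4% of their reads fell outside genes. Genes with a count numbered 17578, 13589 and 14206 in WT vehicle 240, 253 and 265. They numbered 17207 to 22121 in the libraries of the other groups. Of known markers of stem and progenitor cells, Kit, Ly6a, Cd34, Cd48 and Flt3 were detected in all groups, and Slamf1 was at 0 in the 3 WT vehicle libraries. Kit, the receptor of stem cell factor, was at 20.5 to 50.7 CPM (counts per M of the TMM-scaled library size) in KO treated 257 and the 3 WT treated libraries, against 73.9 to 243 CPM in the other 7. Those 4 libraries also stood apart in the rank correlation of transcript length with level relative to the other libraries. It was -0.37 to -0.21 in them and 0.06 to 0.32 in the other 7. The 10 stem and progenitor markers did not all move as Kit did. They summed to 807 to 1496 CPM in KO treated and 1079 to 1683 CPM in WT treated libraries. The sums were 782 and 1199 CPM in KO vehicle and 529 to 1510 CPM in WT vehicle libraries. Between WT treated and WT vehicle libraries, 3 of the 10 had a log2 fold change above 0. Cd48 was at 600 to 900 CPM in WT treated, against 184 to 464 CPM in WT vehicle libraries. The 12 erythroid markers found summed to 22411 to 108687 CPM in KO treated, 257 to 651 CPM in WT treated, 345 and 17548 CPM in KO vehicle and 63.6 to 1124 CPM in WT vehicle libraries, with no marker at 0 in any group. The 12 granulocyte markers summed to 10716 to 34082 CPM in KO treated, 30968 to 160454 CPM in WT treated, 39749 and 62203 CPM in KO vehicle and 38810 to 101735 CPM in WT vehicle libraries, with none at 0 in any group. Between KO treated and WT treated libraries the 9 monocyte markers (2428 to 5288 against 6913 to 18764 CPM) and the 7 B cell markers (38.1 to 66.4 against 72.4 to 123 CPM) summed lower without overlap, and the 10 stroma and endothelium markers higher (87.3 to 125 against 54.4 to 71.7 CPM), with none at 0 in either group. Gene by gene, 4 of the 9 monocyte markers had a log2 fold change above 0 there (median -0.07), so the lower sum does not hold for the list as a whole. Above 0 were 1 of the 7 B cell markers (median -0.89) and 9 of the 10 stroma and endothelium markers (median 1.74). The libraries are bulk, so fewer cells of a type and less RNA per cell cannot be told apart.

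Mapk14 was the main p38 kinase RNA. Per kilobase of exon it made up 71.8%, 89.0% and 93.3% of the summed p38 level in KO treated libraries, 81.3%, 70.8% and 34.6% in WT treated, 85.4% and 76.9% in KO vehicle, and 85.1%, 69.6% and 77.8% in WT vehicle. The exception was WT treated 266, where Mapk13 made up 63.8%. Mapk14 itself was at 74.7, 179 and 205 CPM in the KO treated libraries, 79.1, 80.0 and 65.1 CPM in WT treated, 232 and 216 CPM in KO vehicle, and 209, 139.7 and 216 CPM in WT vehicle. KO treated 257 lay with the 3 WT treated libraries, and those 4 were below the other 7.

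**Figure D1:**
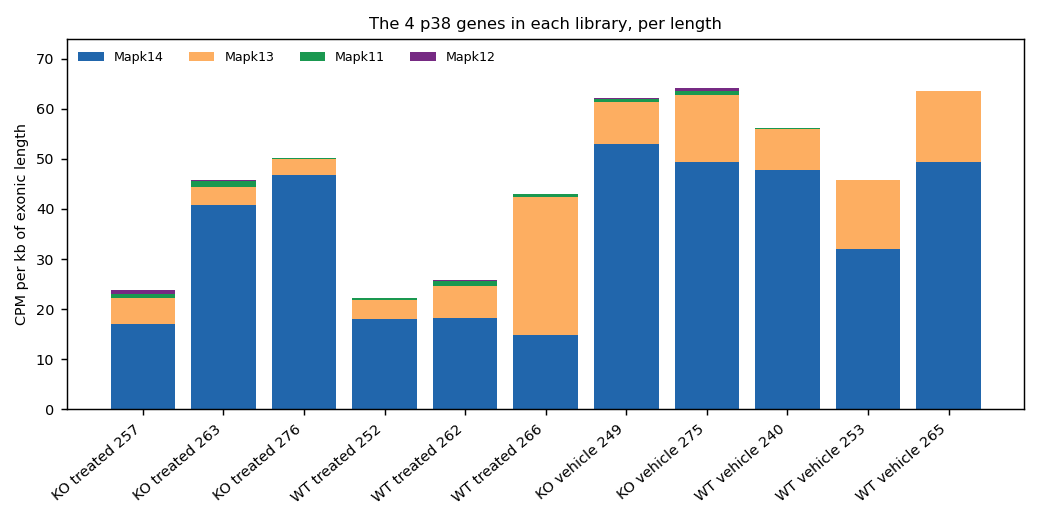
Level of the 4 p38 kinase genes, stacked, in CPM per kilobase of exonic length (y axis) in the 11 libraries (x axis). Mapk14 was the largest part in every library but WT treated 266, where Mapk13 held 63.8% of the sum, and the sum was 23.8 in KO treated 257, against 22.2 to 43.0 in the WT treated libraries.

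The other p38 kinases were lower. Mapk13 was at 16, 11.5 and 9.48 CPM in KO treated libraries, 11.6, 20.1 and 86.4 CPM in WT treated, 26.4 and 42.3 CPM in KO vehicle, and 25.5, 43.9 and 44.2 CPM in WT vehicle. Mapk11 was at 2.21, 3.34 and 0.963 CPM in the KO treated libraries, 1.11, 2.56 and 1.91 CPM in WT treated, 1.75 and 2.17 CPM in KO vehicle, and 0.775, 0 and 0.246 CPM in WT vehicle. Mapk11 thus had no more than 12 reads in a WT vehicle library, against at least 26 in any other library. Mapk12 had 72, 26 and 2 reads in KO treated, 9, 26 and 4 in WT treated, 6 and 63 in KO vehicle, and 0 in each of the 3 WT vehicle libraries. Its reads were few in every group and, outside WT vehicle, varied widely within the groups. Mapk13 and Mapk14 lie 20890 bases apart on chromosome 17, and Mapk11 and Mapk12 lie 1782 bases apart on chromosome 15 (GRCm38, GENCODE M21). No exon of a member overlaps an exon of another annotated gene there.

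Among the activators, Map2k3 and Map2k6 encode MAP2Ks specific to p38, Map2k4 one that also acts on JNK, and Tab1 a protein that can bind p38 alpha and lead it to phosphorylate itself. Map2k3 was at 66.8, 118 and 230 CPM in KO treated libraries, 57.9, 96.0 and 117 CPM in WT treated, 166 and 192 CPM in KO vehicle, and 102, 155 and 99.5 CPM in WT vehicle. Only between KO vehicle and WT vehicle did its values not overlap, among the 4 comparisons of 2 groups made here. Map2k4 was at 24.2, 62.9 and 92.6 CPM in the KO treated libraries, 32.9, 31.2 and 30.4 CPM in WT treated, 79.6 and 57.9 CPM in KO vehicle, and 63.6, 108 and 91.7 CPM in WT vehicle. As with Mapk14, KO treated 257 and the WT treated libraries were below the other 7. Tab1 was at 19.4, 43.0 and 30.1 CPM in the KO treated libraries, 12.8, 12.6 and 14.4 CPM in WT treated, 46.4 and 33.5 CPM in KO vehicle, and 32.8, 37.7 and 26.8 CPM in WT vehicle. The 3 WT treated libraries were the lowest of the 11. Map2k6 was at 3.72, 5.65 and 7.11 CPM in the KO treated libraries, 9.37, 10.8 and 8.05 CPM in WT treated, 9.35 and 11.4 CPM in KO vehicle, and 3.81, 16.5 and 0.123 CPM in WT vehicle. Its WT vehicle libraries spanned the values of all other groups.

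Mapkapk2 encodes MK2, a p38 substrate that controls the stability of cytokine mRNAs, and Mknk2 encodes MNK2, which phosphorylates the cap-binding factor eIF4E. Mapkapk2 was at 108, 286 and 404 CPM in KO treated libraries, 126, 145 and 127 CPM in WT treated, 485 and 454 CPM in KO vehicle, and 222, 515 and 383 CPM in WT vehicle. KO treated 257 was below the WT treated libraries, and those 4 were below the other 7. Mknk2 was at 64.4, 105 and 139 CPM in the KO treated libraries, 50.0, 39.2 and 30.3 CPM in WT treated, 85.3 and 89.4 CPM in KO vehicle, and 44.5, 56.5 and 88.1 CPM in WT vehicle. Each KO treated library, 257 included, was above each WT treated library.

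**Figure D2:**
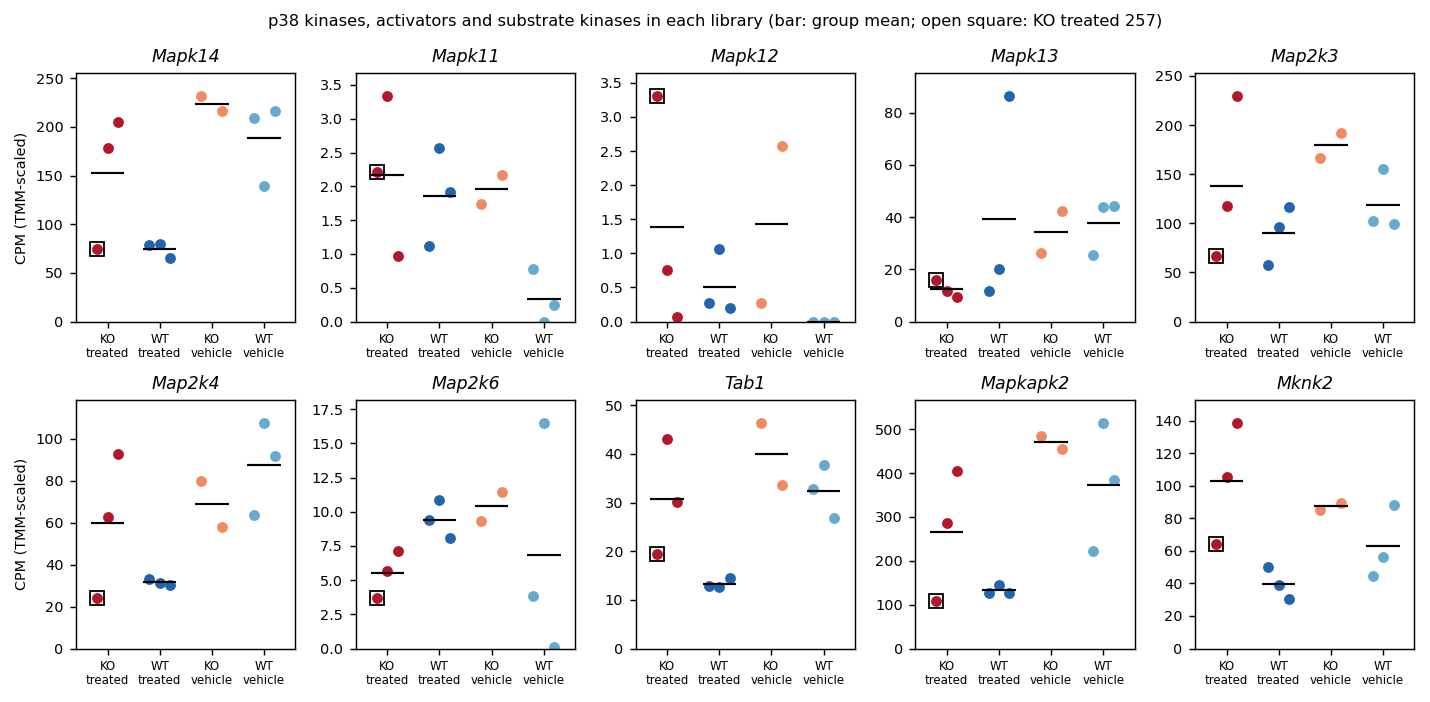
Level of the 10 members (CPM, linear y axis from 0) in each library of the 4 groups (x axis), 1 panel a gene, with a point per library, a bar at the group mean and an open square around KO treated 257. KO treated 257 lies with the WT treated libraries for Mapk14 (74.7 CPM against 65.1 to 80.0 CPM) and above them for Mknk2 and Tab1.

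Per kilobase, Mapkapk2 had the highest mean level of the 10 in all 4 groups, at 87.5 CPM per kilobase in KO treated, 43.6 in WT treated, 155 in KO vehicle and 123 in WT vehicle. Map2k3 and Mapk14 came next in each group, and their ranges overlapped in each. In KO treated libraries the order went on with Mknk2, Map2k4, Tab1, Mapk13, Map2k6, Mapk11 and Mapk12, and only Tab1 and Mapk13, and Mapk13 and Map2k6, had ranges that did not overlap among neighbours. In WT treated libraries Mapk13 stood before Mknk2, with overlapping ranges. Mapk11 and Mapk12 were last in all 4 groups.

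In treated hosts, Mapk14, Tab1, Mapkapk2 and Mknk2 were higher in the KO niche than in the WT niche by about 1 unit on the log2 scale, and Mapk13 was lower, but no member passed the test after adjustment. edgeR's quasi-likelihood test with Benjamini-Hochberg adjustment over all genes called 0 of the 10, as it called 0% of the 16639 genes, with 0.379 as the lowest adjusted p. At an unadjusted p under 0.05, 4 members were higher and 1 was lower, against 7.13% higher and 3.5% lower of all genes. The 3 KO treated and 3 WT treated libraries did not overlap for 2 higher members (Tab1 and Mknk2) and 1 lower member (Map2k6), against 9.71% higher and 9.56% lower of all genes. The median log2 fold change of the 10 was 0.97, with 8 above 0, and that of all genes was 0.10, with 53.9% above 0.

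Mknk2 averaged 103 ± 37.2 CPM in KO treated, against 39.8 ± 9.90 CPM in WT treated libraries (SD, n = 3 each). Its log2 fold change was 1.37 ± 0.37 (SE), with a 95% interval of 0.56 to 2.18 and an adjusted p of 0.383 in edgeR. Tab1 averaged 30.8 ± 11.8 CPM in KO treated, against 13.3 ± 0.996 CPM in WT treated libraries, for a log2 fold change of 1.22 ± 0.39 with an interval of 0.38 to 2.06 and an adjusted p of 0.405 in edgeR. Mapk14 averaged 153 ± 68.9 CPM in KO treated, against 74.7 ± 8.38 CPM in WT treated libraries. This gave 1.03 ± 0.37, with an interval of 0.23 to 1.83 and an adjusted p of 0.432 in edgeR. For Mapk14 the KO treated group was the wider, since 257 lay inside the WT treated range and 263 and 276 lay well above it. Mapkapk2 averaged 266 ± 149 CPM in KO treated, against 133 ± 10.8 CPM in WT treated libraries, for a log2 fold change of 1.0 ± 0.44 with an adjusted p of 0.462 in edgeR. Map2k4, at 59.9 ± 34.3 CPM in KO treated, against 31.5 ± 1.29 CPM in WT treated libraries, had 0.93 ± 0.43. Map2k3 had 0.62 ± 0.43, and Mapk11 and Mapk12 0.22 ± 1.22 and 1.41 ± 1.56, so the low p38 isoforms were measured too loosely for a difference of this size to be seen.

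Mapk13 went the other way, at 12.3 ± 3.33 CPM in KO treated, against 39.4 ± 41.0 CPM in WT treated libraries. Its log2 fold change was -1.67 ± 0.65, with an interval of -3.10 to -0.24 and an adjusted p of 0.434 in edgeR, and it was -0.36 without WT treated 266. Map2k6 was at 5.50 ± 1.70 CPM in KO treated, against 9.42 ± 1.39 CPM in WT treated libraries, for a log2 fold change of -0.78 ± 1.06.

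With edgeR, whether members were called turned on KO treated 257. Without it, edgeR called 5 members higher in the KO niche of treated hosts, among 1513 genes called in all. They were Mapk14 (log2 fold change 1.36, adjusted p = 0.0109), Mknk2 (1.61, 0.0170), Map2k4 (1.3, 0.0242), Tab1 (1.46, 0.0251) and Mapkapk2 (1.38, 0.0266). With limma voom and quality weights, which give a library that stands apart less weight, the same 5 members were called with all 11 libraries, among 4375 genes. With the DESeq2 Wald test, 0 members and 224 genes were called. Without KO treated 276, Map2k4 was at 0.40 and Mapkapk2 at 0.50. With the trend with transcript length removed, Mapk14 was at 0.73, Tab1 at 1.16 and Mknk2 at 1.2, and 0 members were called, as was so when 257 was also left out (27 genes called), an alternative chosen after seeing the data. All 12 erythroid markers were higher in KO treated libraries, without overlap. The alpha globin gene Hba-a1 was at 17243, 6937 and 32689 CPM in KO treated, against 191, 78.3 and 259 CPM in WT treated libraries, and Hbb-bt and Alas2 had log2 fold changes of 6.78 ± 1.55 and 8.33 ± 1.65. The part of erythroid RNA in the members' differences was not tested. KO treated 257 had 47012 CPM of erythroid markers, between the 22411 and 108687 CPM of the other 2 libraries, and the lowest Mapk14 of the 3.

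**Figure D3:**
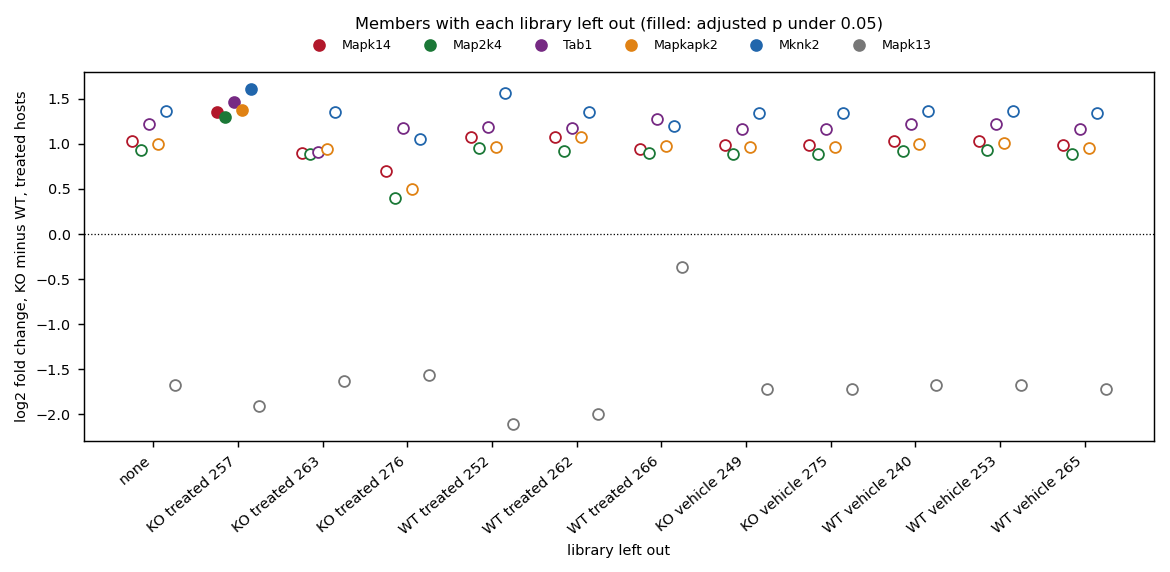
Log2 fold change of KO over WT in treated hosts (y axis) for 6 members, with all 11 libraries (none) and with each library left out in turn (x axis). Filled points mark an adjusted p under 0.05 in edgeR, which were seen only without KO treated 257. For Mapk14 it lay between 0.70 without KO treated 276 and 1.36 without KO treated 257.

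In vehicle hosts no member stood out clearly between the niches. Mapk14 averaged 224 ± 11.3 CPM in KO vehicle (n = 2) and 188 ± 42.4 CPM in WT vehicle libraries (n = 3), a log2 fold change of 0.25 ± 0.40 with a 95% interval of -0.63 to 1.13. Mapkapk2 had 0.33 ± 0.49, Tab1 0.30 ± 0.42, Mknk2 0.47 ± 0.40, Map2k3 0.59 ± 0.48, Map2k4 -0.35 ± 0.48, Map2k6 0.60 ± 1.17 and Mapk13 -0.14 ± 0.71. Their intervals all included 0, with upper ends from 0.70 (Map2k4) to 3.16 (Map2k6). With the length trend removed, Mapk14 was at -0.15, Tab1 at -0.11 and Mapkapk2 at -0.13, so even the sign of these 3 depended on it. With edgeR, 0 of the 10 members and 0% of all genes were called, with 0.267 as the lowest adjusted p over all genes, and 0 members by the DESeq2 Wald test (319 genes called) and limma voom. At an unadjusted p under 0.05 1 member was higher (Mapk12, whose WT vehicle libraries were all at 0) and 0 were lower, against 4.8% higher and 1.98% lower of all genes. Mapk11, Mapk12 and Map2k3 were higher without overlap and 0 were lower without overlap, against 13.2% higher and 7.47% lower of all genes. Mapk12 averaged 1.42 CPM in KO vehicle libraries, at least 19.3-fold higher than the floor of WT vehicle, taken as 3 counts over its 3 libraries, which covers counting error only. Without KO vehicle 275 the other library, at 0.269 CPM, was at least 3.65-fold higher than that floor. The floor does not cover loss of genes in a library. WT vehicle 253 and 265 had the fewest genes with a count, and the part of this in the 0 reads was not tested. Mapk12 also had 0 reads in WT vehicle 240, which had 17578 genes with a count. Mapk11 had a log2 fold change of 2.5 ± 1.40. The median of the 10 was 0.40, with 8 above 0, and that of all genes 0, with 48.7% above 0.

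In the WT niche, treated libraries had less RNA of Mapk14, Map2k4, Tab1 and Mapkapk2, by 1.29 to 1.49 on the log2 scale, but not past the adjusted threshold. Each of these 4 was lower in the 3 WT treated libraries than in the 3 WT vehicle libraries without overlap. Mapk14, at 74.7 ± 8.38 CPM in WT treated and 188 ± 42.4 CPM in WT vehicle libraries (SD, n = 3 each), had a log2 fold change of -1.33 ± 0.37, with a 95% interval of -2.14 to -0.53 and an adjusted p of 0.173 in edgeR. Mapkapk2, at 133 ± 10.8 CPM in WT treated and 373 ± 147 CPM in WT vehicle libraries, had -1.49 ± 0.45 with an adjusted p of 0.177 in edgeR. Map2k4, at 31.5 ± 1.29 CPM in WT treated and 87.7 ± 22.3 CPM in WT vehicle libraries, had -1.48 ± 0.44, and Tab1, at 13.3 ± 0.996 CPM in WT treated and 32.4 ± 5.45 CPM in WT vehicle libraries, had -1.29 ± 0.39. Mknk2 had -0.66 ± 0.37, Map2k3 -0.40 ± 0.43, Map2k6 0.46 ± 1.06 and Mapk13 0.06 ± 0.64, and Map2k6 and Mapk13 were at -0.03 and -0.36 with the length trend removed. Mapk11 had 2.42 ± 1.32, and Mapk12 averaged 0.514 CPM in WT treated libraries, at least 6.99-fold higher than the same WT vehicle floor. It was at least 3.29-fold higher without WT treated 262, and at least 4.05-fold higher with the floor taken over 2 libraries, without WT vehicle 253. The few genes with a count in WT vehicle 253 and 265 limit this comparison too.

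edgeR called 0 of the 10 members in this comparison and 0% of all genes, with 0.0849 as the lowest adjusted p. Unadjusted, a p under 0.05 was given for 4 lower members and 1 higher member, against 8.11% lower and 10.1% higher of all genes. By overlap there were 4 lower members and 2 higher members (Mapk11 and Mapk12), against 10.1% lower and 17.5% higher of all genes. Mapk14, Map2k4, Tab1 and Mapkapk2 were called lower by edgeR once KO treated 257 was left out, which is in neither group but enters the shared estimate of the spread (1012 genes called). The DESeq2 Wald test called the same 4 among 1164 genes, and a covariate for reads outside genes called them among 2100 genes. limma voom called 0 members and 0 genes. With the length trend removed, Mapk14 was at -1.44 and Tab1 at -1.67, and 0 members were called. The comparison shares its WT treated libraries with the one between niches in treated hosts, so a low value there enters both.

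In the KO niche, 8 of the 10 members were lower in treated than in vehicle libraries, none of them past the test. The median log2 fold change of the 10 was -0.37, against 0.12 for all genes, of which 56.1% were above 0. Among the 8, Map2k4 and Mapk12 changed sign in some fits with a library left out. Mapk14 was at 153 ± 68.9 CPM in KO treated (n = 3) and 224 ± 11.3 CPM in KO vehicle libraries (n = 2), a log2 fold change of -0.55 ± 0.40 with an interval of -1.43 to 0.32. Mapkapk2 had -0.82 ± 0.49, Mapk13 -1.48 ± 0.70, Map2k6 -0.92 ± 1.16, Map2k3 -0.38 ± 0.48, Tab1 -0.37 ± 0.42, Map2k4 -0.20 ± 0.47, Mknk2 0.24 ± 0.41, Mapk11 0.15 ± 1.37 and Mapk12 -0.05 ± 1.70. Without KO treated 257, Mapk14 was at -0.22 and Mapkapk2 at -0.45. With edgeR, 0 members and 0% of all genes were called, with every adjusted p at 1, and 0 members by the DESeq2 Wald test (31 genes called) and limma voom. At an unadjusted p under 0.05, 0 members passed, against 2.7% higher and 0.974% lower of all genes. Mapk14, Mapk13, Map2k6 and Mapkapk2 were lower without overlap and 0 were higher, against 10.1% lower and 12.3% higher of all genes.

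**Figure D4:**
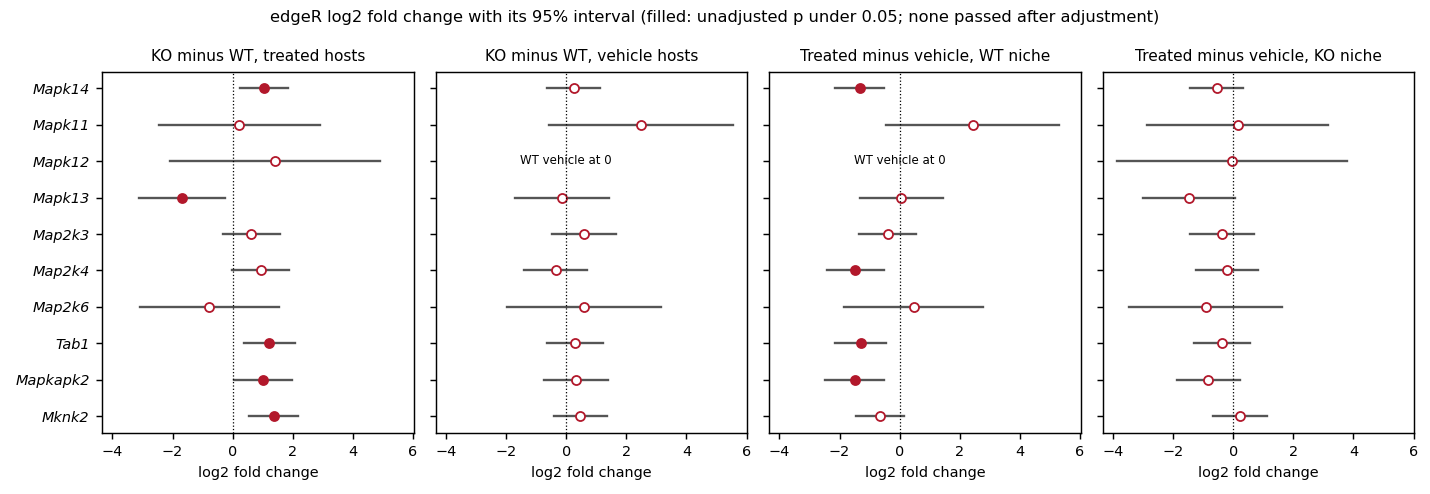
Log2 fold change of each member (x axis) with its 95% interval, for the 2 niche comparisons and the 2 treatment comparisons, 1 panel each. Filled points mark an unadjusted p under 0.05, and none passed after adjustment. Mapk12 is left out where WT vehicle is compared. The intervals of Mapk14 lie above 0 for the niche in treated hosts (0.23 to 1.83) and below 0 for treatment in the WT niche (-2.14 to -0.53), and include 0 in the other 2 panels.

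Whether the niche difference itself changed with treatment was tested by the interaction. It was 0.78 ± 0.55 for Mapk14, 1.28 ± 0.65 for Map2k4, 0.92 ± 0.58 for Tab1, 0.90 ± 0.55 for Mknk2, 0.67 ± 0.66 for Mapkapk2 and -1.53 ± 0.95 for Mapk13 on the log2 scale. Without WT treated 266 it was -0.22 for Mapk13, and without KO treated 276 it was 0.44 for Mapk14, 0.76 for Map2k4 and 0.19 for Mapkapk2. With edgeR, 0 members and 0% of all genes were called, and the smallest adjusted p among members was 0.767. Likewise 0 members were called by the DESeq2 Wald test (109 genes called) and by limma voom. At an unadjusted p under 0.05, 0 members were higher and 1 was lower (Mapk12, again with WT vehicle at 0), against 3.04% higher and 3.27% lower of all genes. The niche differences in treated and in vehicle hosts are thus not shown to differ.

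Averaged over treatment, the KO niche had higher Mknk2 by 0.92 ± 0.27, Tab1 by 0.76 ± 0.28, Mapkapk2 by 0.67 ± 0.33 and Mapk14 by 0.64 ± 0.27. At an unadjusted p under 0.05 there were 4 higher members, Mapk12 among them, and 0 lower, against 8.1% higher and 2.79% lower of all genes, and edgeR called 0 members and 0% of all genes after adjustment. limma voom called Mapkapk2 and Mknk2 among 545 genes, and the DESeq2 Wald test 0 members and 422 genes. Averaged over the niche, treated libraries had lower Mapkapk2 (-1.16 ± 0.33), Mapk14 (-0.94 ± 0.27), Map2k4 (-0.84 ± 0.32) and Tab1 (-0.83 ± 0.28). These were the 4 lower members at an unadjusted p under 0.05, with 0 higher, against 6.05% lower and 9.98% higher of all genes, and edgeR called 0 members and 0% of all genes. Mapk14 was called by the DESeq2 Wald test among 513 genes, and limma voom called 0 members and 1 gene.

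The rest of the pathway was read from 6 lists of 78 genes, of which 73 were tested and 0 were called in any of the 7 comparisons by edgeR after adjustment. In treated hosts, 52 of the 73 were higher in the KO niche (median log2 fold change 0.39), against 53.9% of all genes (median 0.10). At an unadjusted p under 0.05, 11 of the 73 were higher and 0 were lower, against 7.13% higher and 3.5% lower of all genes. The DESeq2 Wald test called 2 higher and 0 lower of the wider lists there, among 224 genes called in all. With limma voom 24 were higher and 2 lower, among 4375 genes. Without KO treated 257, edgeR called 4 higher and 1 lower, among 1513 genes. The MAP3K tier, which receives the stress signal and phosphorylates the MAP2Ks, had 13 of 15 higher, a median of 0.61, and 7 higher at an unadjusted p under 0.05, beside the same shares of all genes. Map3k11, which encodes the mixed-lineage kinase MLK3, was at 40.8, 80.0 and 72.2 CPM in KO treated, against 24.1, 20.3 and 26.0 CPM in WT treated libraries. Its log2 fold change was 1.46 ± 0.32 with an adjusted p of 0.379 in edgeR. Taok2, a kinase that acts on MAP2Ks of the p38 branch, was at 28.3, 30.0 and 29.1 CPM in KO treated, against 14.9, 12.9 and 13.4 CPM in WT treated libraries, for a log2 fold change of 1.09 ± 0.33. For both genes KO treated 257 was above each WT treated library.

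Of the phosphatases that switch MAP kinases off, Ptpn7 was at 152, 182 and 179 CPM in KO treated, against 69.2, 84.3 and 90.7 CPM in WT treated libraries, for a log2 fold change of 1.07 ± 0.32, and 8 of the 13 tested were above 0. Dusp8 had 11, 33 and 219 reads in KO treated and 8, 0 and 0 in WT treated libraries. Of the 20 transcription factors and other substrates, 15 were above 0, and the RNA-binding protein gene Zfp36l2 was at 74.2, 169 and 95.2 CPM in KO treated, against 68.6, 57.1 and 43.0 CPM in WT treated libraries. Cdc25b, a cell cycle phosphatase, was at 17.7, 52.2 and 152 CPM in KO treated, against 10.7, 12.5 and 13.1 CPM in WT treated libraries, for a log2 fold change of 2.61 ± 1.02. Traf6 had 1.57 ± 0.75 and Gadd45a 1.23 ± 0.63 among the other activators, with overlapping groups, and 8 of 13 were above 0. The JNK and ERK branch kinases had 5 of 9 above 0, a median of 0.06, and 0 at an unadjusted p under 0.05.

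For treatment in the WT niche, 23 of the 73 were above 0, with a median of -0.31, against 52.6% of all genes and a median of 0.09. Unadjusted, a p under 0.05 was given for 8 lower and 4 higher genes, against 8.11% lower and 10.1% higher of all genes. The DESeq2 Wald test called 5 lower and 2 higher, among 1164 genes called in all. With limma voom 0 were called, and 0 of all genes. Without KO treated 257, edgeR called 4 lower and 0 higher, among 1012 genes. In the MAP3K tier 3 of 15 were above 0, and 4 were lower at an unadjusted p under 0.05. Taok2 was at 14.9, 12.9 and 13.4 CPM in WT treated and 46.8, 37.7 and 34.1 CPM in WT vehicle libraries, a log2 fold change of -1.53 ± 0.33 with an adjusted p of 0.172 in edgeR. Map3k11 was at 24.1, 20.3 and 26.0 CPM in WT treated and 53.5, 50.1 and 55.9 CPM in WT vehicle libraries, or -1.18 ± 0.32. Both sets of libraries stood apart for both genes. Ptpn7 had -1.37 ± 0.33, and Dusp1, a phosphatase of p38 and JNK that is itself an early stress gene, -0.93 ± 0.33. Mknk1, the paralog of Mknk2, had -0.97 ± 0.43, and Eif4e, the factor the MNK kinases phosphorylate, 0.78 ± 0.28. Trib3, a pseudokinase gene of the stress response, had 141, 49 and 4 reads in WT treated and 0, 0 and 1 in WT vehicle libraries. WT vehicle 253 and 265 were the libraries with the fewest genes with a count.

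In vehicle hosts 35 of the 73 were higher in the KO niche, against 48.7% of all genes, and at an unadjusted p under 0.05 3 were higher and 2 were lower, against 4.8% higher and 1.98% lower of all genes. The lower pair were scaffolds, Tab2 of the kinase TAK1 at -1.28 ± 0.46 and Spag9 of the JNK and p38 modules at -1.18 ± 0.48, the second of which was named after its value was seen. The DESeq2 Wald test called 1 of the 73 there, among 319 genes called in all. It called 0 for treatment in the KO niche (31 genes) and 1 in the interaction (109 genes). With limma voom 0 were called in each, and 0 of all genes. In the KO niche, Spag9 was at 64.3, 38.5 and 37.3 CPM in KO treated, against 21.0 and 17.7 CPM in KO vehicle libraries, a log2 fold change of 1.27 ± 0.48, and 36 of the 73 were above 0, against 56.1% of all genes. Max, a partner of MYC, had 1.31 ± 0.52 and Zfp36l1 2.10 ± 0.90 in that comparison, which has an adjusted p of 1 for every gene.

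By the root-mean-square difference of log2 CPM over the 11 libraries, each gene centred on its own mean, the 4 genes most like Mapk14 among 8098 well-expressed genes were Rab8b (0.18), Exoc6 (0.18), Ubqln1 (0.20) and Bap1 (0.20), against a median of 0.88. Among the members Tab1 came first, at rank 191 (0.36), then Map2k4 at 299 (0.39), Mapkapk2 at 446 (0.42), Mknk2 at 1031 (0.51) and Map2k3 at 1333 (0.56). Mapk13 was at rank 6086. Mapk11, Mapk12 and Map2k6 lay under the level needed for ranking, a mean log2 CPM of 3, and were not ranked, since few reads alone widen the measure. These ranks describe the 11 libraries, including the split of 4 from 7 given above.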

How the data were processed

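Raw counts of reads for each Ensembl gene in the 11 libraries were used as the authors deposited them, with 53700 genes and 5 summary lines that were left out of library sizes and tests (not unique 11.6% to 30.0%, ambiguous 2.34% to 6.31% of reads). Per the labels' protocols, a SMARTer Ultra Low Input kit amplified the RNA and Nextera XT made the libraries. Per the submitters' processing notes, bcl2fastq, Trim Galore 0.6.7, STAR 2.7.9a, HTSeq (given as 0.6.7), DESeq2 and build GRCm39 were named. The annotation and strand setting are not given in the sources used here, and the counts carry no molecular identifiers. Symbols (52093 genes), lengths (99.7% of tested genes) and positions came from GENCODE M21 on GRCm38, matched by stable ID, and no coordinate was converted.

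In R 4.3.3, edgeR 4.0.16 kept 16639 genes (filterByExpr), scaled by TMM and fitted 4 group means by robust quasi-likelihood, with 7 contrasts and Benjamini-Hochberg adjustment over all genes in each. The biological coefficient of variation was 0.783. The SE is the absolute log2 fold change over the square root of F. The floor for a group at 0 is 3 counts over the group. Alternatives used limma 3.58.1 and DESeq2 1.42.0. The scripts were tested on simulated data, with 4-fold changes set between KO treated and WT treated. Of these, edgeR recovered 25%, the DESeq2 Wald test 53% and limma voom 21%. False calls were 3, 106 and 2 in the same order. The members and lists were chosen with earlier results of these data known. The text names all 10 members and, from each other list, genes among the up to 2 with the smallest unadjusted p in a comparison. Of the 78 genes, 77 were matched, and Rps6ka4 was not analysed here. Some genes that the naming rules reach are not reported here.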

Additional observations from a re-analysis of the deposited data

Results flagged for a closer look

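Taok3, a MAP3K-tier kinase, had niche differences of opposite sign in treated and in vehicle hosts, which were not shown to differ after adjustment. It was at 142, 122 and 103 CPM in KO treated, against 88.5, 66.4 and 84.7 CPM in WT treated libraries, for a log2 fold change of 0.61, and at 108 and 112 CPM in KO vehicle and 132, 195 and 129 CPM in WT vehicle libraries, a log2 fold change of -0.46. Neither pair of groups overlapped. Taok3 was picked for this, as the only gene found in a scan of the members and the pathway genes that the naming rules reach. The lack of overlap is thus no separate support, and the p-value below does not allow for the choice. Of all genes, 9.71% were higher without overlap in treated hosts and 7.47% lower in vehicle hosts. The test of the difference itself gave an interaction of 1.08 ± 0.42 with an unadjusted p of 0.0253 and an adjusted p of 0.767 in edgeR, so it did not pass the adjustment. No group held 4 or more libraries, so single libraries were not tested as outliers.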

How the results depend on the processing

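The number of members called was 0 in all 7 comparisons with edgeR on all 11 libraries, and with DESeq2 size factors, the length trend removed, or WT vehicle 253 and 265 left out together. For the niche in treated hosts it was 5 with limma voom (4375 genes). For treatment in the WT niche it was 1 with no filter (Mapkapk2, among 215 genes), 4 with the DESeq2 Wald test (1164 genes) and 4 with a covariate for reads outside genes (2100 genes). For the niche averaged over treatment it was 2 with limma voom (545 genes), and for treatment averaged over the niche 1 with the DESeq2 Wald test (513 genes) and 3 with the covariate (Mapk14, Map2k4 and Mapkapk2, among 1517 genes). Leaving out 1 library at a time gave 0 to 5 for the niche in treated hosts, 0 to 4 for treatment in the WT niche and 0 to 2 for the niche averaged over treatment, each upper value without KO treated 257, and 0 elsewhere. The cause was not tested. Over all genes, calls ran from 0 to 4375 for the niche in treated hosts, while edgeR on all libraries called 0.

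Of 1180 recomputed log2 fold changes of members, 1098 kept their direction and their side of the threshold, 31 newly passed it and 51 changed sign. Sign changes with limma voom were Mapk12 -0.11 (niche, treated), Mapk13 0.057 (niche, vehicle) and -0.61 (treatment, WT niche), Map2k3 -0.14 (interaction), and Map2k6 0.91 (niche averaged) and 0.85 (treatment averaged). With the length trend removed they were Mapk14 -0.15, Tab1 -0.11 and Mapkapk2 -0.13 (niche, vehicle), Mapk13 -0.36 and Map2k6 -0.031 (treatment, WT niche), Mapk12 0.12 (treatment, KO niche) and Map2k4 -0.13 (niche averaged), and without KO treated 257 as well, an alternative chosen after seeing the data, Mapk12 -0.49 (niche, treated). With the covariate they were Mapk14 -0.16, Mapk13 0.26 and Mapkapk2 -0.26 (niche, vehicle) and Map2k6 -0.25 (treatment, WT niche). Without WT vehicle 253 and 265 they were Mapk13 0.55 and Map2k4 0.23 (niche, vehicle), Map2k3 -0.36 and Mapkapk2 -0.24 (interaction), and Map2k6 0.38 (niche averaged) and 0.23 and Mknk2 0.075 (treatment averaged). DESeq2 size factors and the Wald test gave Mapk12 0.040 and 0.038 (treatment, KO niche).

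Leaving out 1 library at a time, the results that changed sign ranged as follows. For the niche in treated hosts, Map2k3 ranged between -0.029 and 0.94, Mapk11 between -0.21 and 0.52 and Mapk12 between -0.29 and 2.47. For the niche in vehicle hosts, Map2k6 ranged between -0.011 and 2.36 and Mapk13 between -0.51 and 0.15. For treatment in the WT niche, Map2k6 ranged between -0.15 and 2.21 and Mapk13 between -1.26 and 0.49. For treatment in the KO niche, Map2k4 ranged between -0.72 and 0.18, Mapk11 between -0.26 and 0.46, Mapk12 between -1.75 and 2.34 and Mknk2 between -0.083 and 0.48. Map2k3 ranged between -0.61 and 0.35 in the interaction, and Map2k6 between -0.41 and 0.79 for the niche averaged and between -0.55 and 0.65 for treatment averaged. Of the 65 log2 fold changes of members so recomputed, 47 moved by over 1.5 times or changed sign when some library was left out. A lone KO vehicle library was taken to vary as the other groups do. Mapk11 and Mapk12 are limited by their few reads. No paired analysis was possible because the groups share no replicate numbers.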
